A study of Zea mays with 27 samples.

Results

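The genes described here are 5 maize tubulin isotypes, the alpha-tubulin tua3 (LOC542395) and the beta-tubulins tub3 (LOC542416), tub4 (LOC542417), tub6 (LOC542239) and tub7 (LOC542705). Their members are the cDNA probes assigned to these genes, and to no other gene, in the platform's gene table. They are 5 of the 532 genes that the table names in this way. There were 19 such probes among 18303 probes with values, 9 for tua3, 1 each for tub3 and tub4, 3 for tub6 and 5 for tub7. All 19 had a value on each of 27 arrays, so no filter removed any.

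The study set the F1 hybrid, raised with Mo17 as the female and B73 as the male parent, against the inbred lines B73 and Mo17. Above-ground tissue of 14-day-old seedlings was used, with 6 seedlings pooled per genotype and replication, and 9 replications were kept, each with 3 arrays that paired the genotypes in a loop with alternating dyes. The labels used here name the genotype in 1 channel of 1 array (F1 in Cy3 on S1), so the arrays S1 to S27 were placed in no group and no genotypes were compared. Each value is the log ratio of the 2 channels of an array, read as a natural log and converted to log2, minus the array's median. The log base was inferred and a constant multiple is not fixed, so log2 values and folds hold only under this reading. Which channel is the numerator is not given in the sources used here, so a value is above or below the array median without being a rise or a fall in a genotype. A ratio holds no level either: the isotypes cannot be ordered by abundance, and the labelled tissue could not be checked against marker genes. In pooled tissue, fewer cells of a type and less RNA per cell cannot be told apart.

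Alpha- and beta-tubulin join into a heterodimer, and heterodimers stack end to end into the hollow filaments called microtubules. In growing plant cells, microtubules under the plasma membrane guide the laying down of cellulose, and in dividing cells they form the spindle and the phragmoplast, which builds the new cell wall. Plants carry several genes for each subunit, and the proteins they encode, the isotypes, are closely alike. A spotted cDNA can therefore also bind transcripts of a related isotype, and how far it did so was not measured here.

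**Figure D1:**
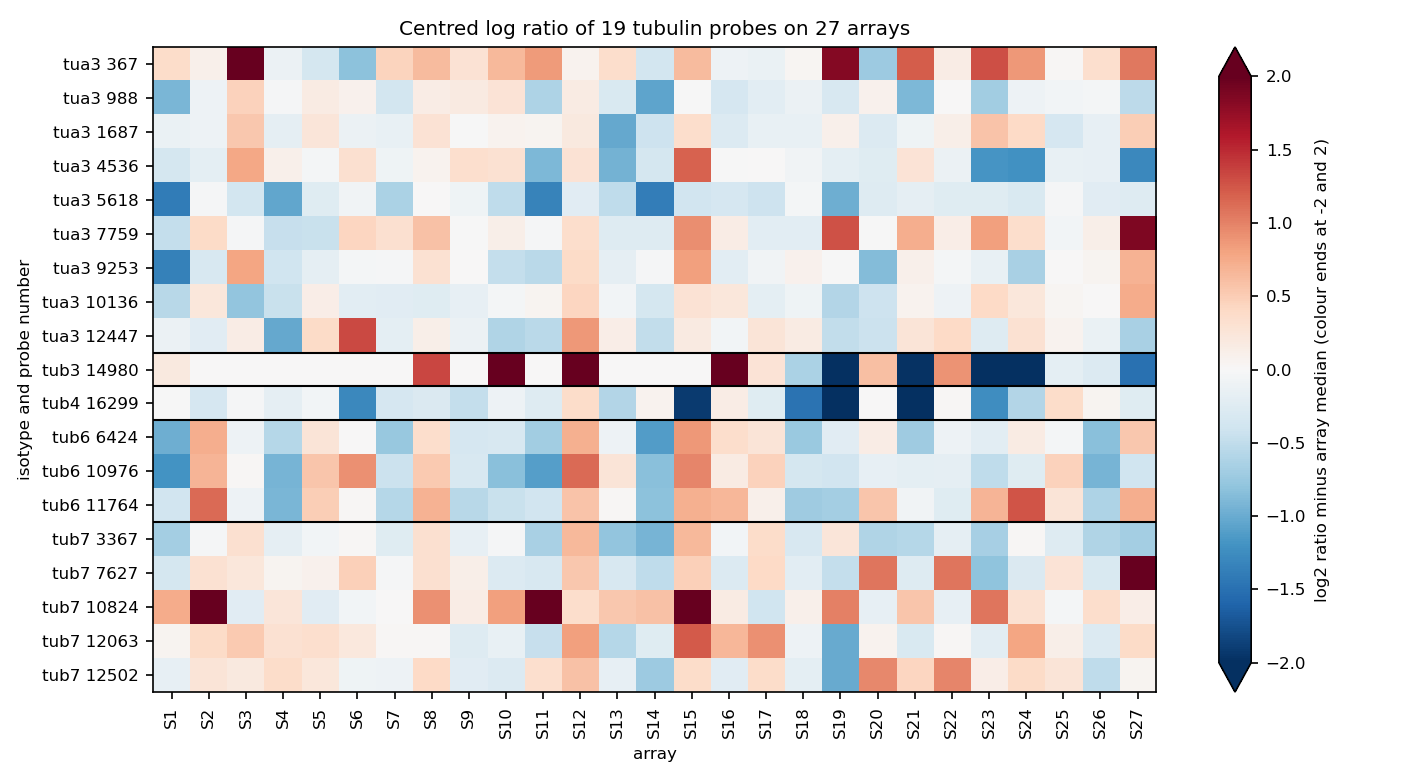
Centred log ratio (colour, log2 scale, ending at -2 and 2) of the 19 tubulin probes (rows, by isotype and probe number) on the 27 arrays (columns). The tub6 rows have the same colour on most arrays. Dark cells stand out in a tua3 row on S3, in a tub7 row on S27 and in a different tub7 row on S2, S11 and S15. The tub3 row is at or near 0 on most of S1 to S15.

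The 3 tub6 probes varied together more closely than those of tua3 or tub7, the other isotypes with several probes. Probe 6424 ran from -1.12 (S14) through a median of -0.10 to 0.87 (S15). Probe 10976 ran from -1.19 (S1) through -0.20 to 1.13 (S12), and probe 11764 ran from -0.92 (S4) through 0.03 to 1.25 (S24). The lowest and highest values of all 3 thus lay within about the same limits, though on different arrays.

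All 3 tub6 probes lay together above the array median on 8 arrays and together below it on 12, which makes 20 of 27. Of the 39 genes with 3 probes on the platform, the number of such arrays ran from 1 to 20 with a median of 8, so that no gene of this kind exceeded tub6. The Pearson correlations of the 3 pairs of probes over arrays were 0.61, 0.80 and 0.82. Their median of 0.80 ranked 1 of 147 genes with at least 3 probes, whose median was 0.10. The probes were printed in different blocks of the slide, and the median was 0.73 after each block of 400 spots was centred. It was 0.90 in S1 to S15 alone and 0.51 in S16 to S27 alone. In the first of these sets at least 2% of spots on each array held a single repeated value, and in the second fewer did. These correlations describe the arrays and carry no p-value, since arrays of a loop share RNA and are not independent.

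As a profile, the median over the 3 probes on each array, tub6 was lowest on S1 (-0.97), S4 (-0.92), S14 (-0.84) and S26 (-0.83). It was highest on S15 (0.87), S2 (0.73), S12 (0.72) and S27 (0.53). It passed 2-fold on 0 arrays. The spread of a probe or profile, taken here as its 90th percentile over arrays minus its 10th, was 1.44 on the log2 scale for the tub6 profile, against 0.69 for the tua3 profile and 0.66 for the tub7 profile. By its construction a median over probes narrows where they disagree, and the probes of tua3 and tub7 agreed less closely.

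The 5 probes of tub7 agreed less well. Probe 3367 ran from -0.93 (S14) through a median of -0.18 to 0.65 (S12). Probe 12063 ran from -1.003 (S19) through 0.06 to 1.23 (S15), and probe 12502 from -1.01 (S19) through 0.20 to 0.97 (S22). These 3 were beyond 2-fold on 0, 2 and 1 of the 27 arrays.

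The other tub7 probes each had 1 array far from the rest. Probe 7627 ran from -0.80 (S23) through a median of 0.06 to 6.43 on S27, where its second highest value was 1.07. Probe 10824 ran from -0.40 (S17) through 0.30 to 8.08 on S2, with 3.31 (S15) as its second highest. On S2 the other 4 tub7 probes lay between -0.02 and 0.39, and on S27 the 4 other than 7627 lay between -0.67 and 0.38. On S27 the block of 400 spots that holds 7627 had a median of 3.33, and 117 of its 378 probes were higher than 7627, which was 3.10 above that median. On S2 the block of 10824 had a median of 0.00, and 0 of its 378 probes were higher.

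The median correlation over the 10 pairs of tub7 probes was 0.16, from -0.08 to 0.58. With ranks in place of values it was 0.36, and without S27 it was 0.33. The closest pair was 3367 and 12063 at 0.58, which was 0.72 after block centring. By ranks, the pairs of probe 10824 ran from -0.47 (with 7627) to -0.10 (with 3367). The pairs without 10824 ran by ranks from 0.29 (3367 and 12502) to 0.60 (7627 and 12502). In S1 to S15 alone the median over pairs was 0.63, and in S16 to S27 alone it was -0.19. All 5 probes lay on the same side on 3 arrays (S8, S12 and S15, above the median on each), against a median of 3.5 arrays for the 16 genes with 5 probes. The isotype ranked 57 of 147 genes for the agreement of its probes.

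The alpha-tubulin tua3 had 9 probes that agreed weakly. Over their 36 pairs the median correlation was 0.26, from -0.34 (4536 and 10136) to 0.55 (988 and 5618). Of the 36, 4 pairs (11.1%) reached 0.5, against 4.9% of the 1262505 pairs of probes named for different genes, and 8 lay below 0. The isotype ranked 31 of 147 genes. All 9 probes lay on the same side on 1 array, S14, and at least 8 of 9 on 6 arrays, S8 and S12 above and S1, S4, S14 and S20 below. In S1 to S15 alone the median over pairs was 0.39, and in S16 to S27 alone it was -0.02.

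Probes of tua3 also differed in where they lay. Probe 367 ran from -0.82 (S6) through a median of 0.34 to 4.96 (S3), with 1.83 (S19) as its second highest value. Probe 7759 ran from -0.48 (S1) through 0.12 to 1.86 (S27). It lies in the same block as tub7 probe 7627, and on S27 its value minus that block's median was -1.47. Both tua3 probes lay above the array median more often than below it, on 20 and 15 of 27 arrays.

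Probe 5618 lay on the other side. It ran from -1.40 (S1) through a median of -0.27 to 0.0046 (S8), and was below the array median on 26 arrays. It was the 1 tubulin probe of 19 with at least 90% of arrays below the median, against 0.213% of all probes, and 0 tubulin probes lay above it so often, against 0.0492%. After block centring it was below on 25 arrays with a median of -0.34, whereas with the ratios not centred on the array median 0 of the 19 tubulin probes lay on 1 side so often. The other 8 tua3 probes were below on 7 to 18 arrays, with medians from -0.10 to 0.34. After block centring they were below on 6 (367) to 22 (9253) arrays, with medians from -0.17 (12447) to 0.23 (367). Thus 5618 alone among the 9 reached the 90% limit, though 9253 and 988 leaned the same way after block centring, on 22 and 21 arrays. The lowest values of 5618 fell on S1, S14 (-1.38), S11 (-1.33) and S4 (-1.04), which were also among the 6 arrays with the lowest tub6 profile.

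The remaining 6 tua3 probes had medians from -0.10 to -0.04. Probe 4536 ran from -1.29 (S27) to 1.18 (S15), and probe 9253 from -1.35 (S1) to 0.82 (S15). Probe 12447 ran from -1.02 (S4) to 1.32 (S6). Probe 988 ran from -1.05 (S14) to 0.47 (S3), probe 1687 from -1.03 (S13) to 0.57 (S23), and probe 10136 from -0.78 (S3) to 0.74 (S27). No array was the lowest for more than 1 of these 6, and 2 of them were highest on S15.

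The single probes of tub3 and tub4 stood apart from the others. The tub3 probe, 14980, ran from -6.38 (S24) through a median of 0.00 to 4.81 (S16). On 10 arrays, all within S1 to S15, it held the array's most frequent value, so that its measured values were those of the other 17. Within S16 to S27 its values were 4.81 (S16), 0.27, -0.63, -2.31 (S19), 0.61, -1.97 (S21), 0.90, -3.13 (S23), -6.38 (S24), -0.20, -0.27 and -1.49 (S27). Its block had medians of -1.46 on S19 and -1.09 on S21, and of 0.08 on S16 and 0.03 on S24, so that block centring left 4.73 on S16 and -6.42 on S24. No other tubulin probe held a most frequent value on any array.

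The tub4 probe, 16299, ran from -2.20 (S21) through a median of -0.25 to 0.37 (S25), and was below the array median on 20 of 27 arrays. Its other low values were on S19 (-2.03), S15 (-1.91), S18 (-1.48), S6 (-1.30) and S23 (-1.24). Its block was low on these arrays as well, with medians from -1.27 (S18) to -0.50 (S6), and tub4 lay between -1.28 (S19) and -0.21 (S18) from its block's median. On S15, where the tub6 and tub7 profiles were at their highest, tub4 was on the opposite side also after block centring, at -1.06. The tub3 and tub4 probes correlated at 0.47 with each other over 27 arrays, and at 0.61 without S16 and S24, the arrays farthest from the tub3 median. Low values of both fell on S19, S21 and S23. The tub3 block had a median of -0.77 on S23 as well, and tub3 lay at -0.86, -0.88 and -2.37 from its block's median on these 3 arrays.

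**Figure D2:**
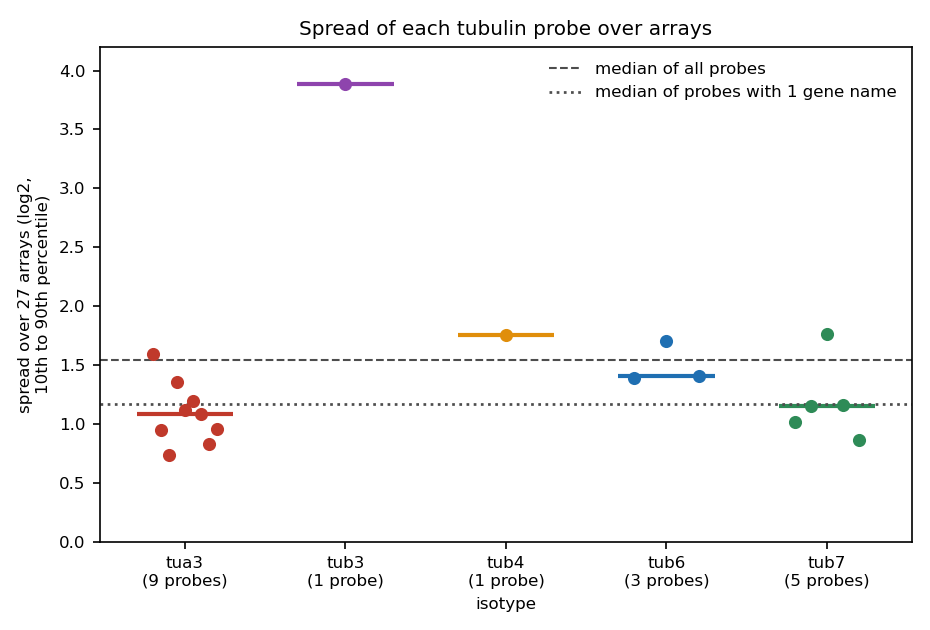
Spread of each tubulin probe (points, 90th minus 10th percentile over 27 arrays, log2 scale) by isotype, with the median over an isotype's probes (bars). The dashed line is the median of all probes (1.54) and the dotted line that of probes with 1 gene name (1.17). The tub3 probe stands above the others at 3.88, and most tua3 and tub7 probes lie below 1.54.

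Most tubulin probes had moderate spreads. The median over the 19 probes was 1.16, against 1.54 for all probes and 1.17 for the 1607 probes with 1 gene name. A spread of at least 2-fold was found for 14 of 19 (73.7%), against 79.2% of all probes and 65% of probes with 1 gene name, so the share was close to the background. By isotype the median spread was 1.08 for tua3, from 0.74 to 1.60, and 5 of its 9 probes reached 2-fold. For tub6 it was 1.41, from 1.39 to 1.70, with 3 of 3, and for tub7 it was 1.15, from 0.86 to 1.76, with 4 of 5. The tub4 probe had 1.76 and the tub3 probe 3.88. Without the 10 arrays on which tub3 held the repeated value, its spread was 5.10.

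Position on the slide moved with some of these spreads. After block centring the tub4 probe had a spread of 1.15, the widest tua3 probe (367) had 1.29 in place of 1.60, and the tub6 median was 1.57. For tub3 it was 3.04. When each array was rescaled to the same interquartile range, the tub6 median was 1.82 and that of tua3 was 0.99.

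**Figure D3:**
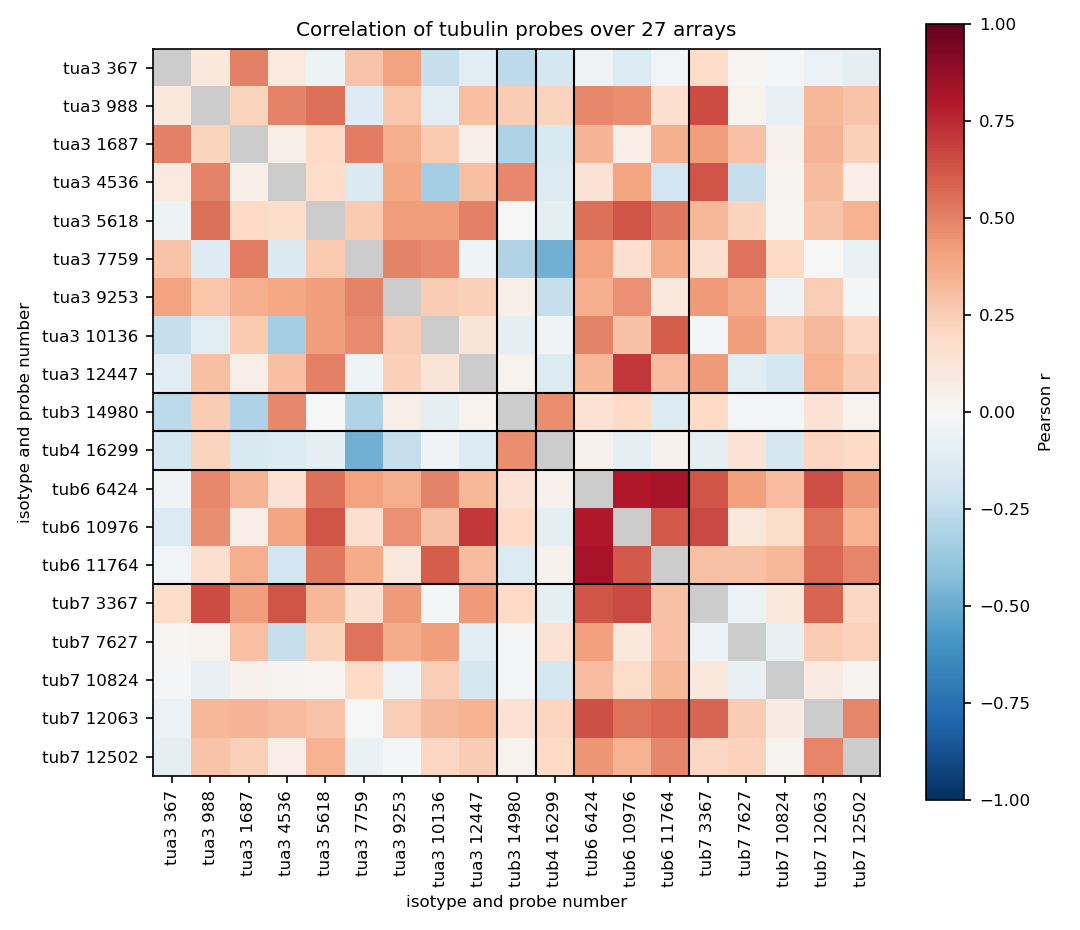
Pearson correlation over 27 arrays (colour, from -1 to 1) of each pair of the 19 tubulin probes, ordered by isotype, with lines between isotypes and the diagonal in grey. The tub6 square is the darkest at 0.61 to 0.82, tub6 with tub7 is above 0 in all 15 pairs, and the tub3 and tub4 rows are mostly pale or blue against tua3.

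Between beta isotypes, tub6 and tub7 correlated most closely as profiles. By pairs of probes, the 1 pair of tub3 and tub4, at 0.47, exceeded the median of tub6 with tub7. Over 27 arrays tub3 and tub4 had medians between 0.03 and 0.15 with tub6 and tub7. All 15 pairs of a tub6 and a tub7 probe correlated above 0, from 0.10 to 0.66 with a median of 0.41, and 5 of the 15 (33.3%) reached 0.5. With ranks in place of values the median was 0.49, but tub7 probe 10824 was at -0.07 with 6424, -0.23 with 10976 and 0.07 with 11764. In S16 to S27 alone its correlations with these probes were -0.37, -0.55 and -0.09. Also below 0 there were 10976 with 7627 (-0.05) and 11764 with 3367 (-0.11). Over pairs of probes named for different genes the median was 0.01, with 4.9% at 0.5 or more and 48.7% below 0. Over 27 arrays pairs of a tub6 and a tub7 probe thus had a higher median than pairs of tub7 probes with each other, but not in S1 to S15 alone, where the medians were 0.60 and 0.63. For tub6 with tub7 the median was 0.35 after block centring and 0.28 in S16 to S27 alone. Only 1 of the 15 pairs shared a block.

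As profiles, tub6 and tub7 correlated at 0.71, with a Spearman rho of 0.70. Both lay above or both lay below the array median on 22 of 27 arrays. The correlation was 0.66 without S1 and S15, the arrays farthest from the tub6 median, and 0.72 after block centring. It was 0.72 in S1 to S15 alone and 0.73 in S16 to S27 alone, so for the profiles it was about as large in either set of arrays. The 5 arrays on opposite sides were S3, S4, S13, S16 and S22. On S4 the profiles were furthest apart, with tub6 at -0.92 and tub7 at 0.25.

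With tub6, the median correlation was 0.14 over 3 pairs for tub3 and 0.04 over 3 pairs for tub4. With tub7 it was 0.03 over 5 pairs for tub3 and 0.15 over 5 pairs for tub4. With ranks in place of values the tub3 medians were 0.30 with tub6 and 0.27 with tub7.

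For tub4 the values over 27 arrays joined opposite signs in the 2 sets of arrays. In S1 to S15 alone its medians were -0.36 with tub6 and -0.26 with tub7, and in S16 to S27 alone they were 0.34 and 0.29. As profiles, tub4 correlated at -0.34 with tub6 and -0.25 with tub7 in S1 to S15, and at 0.44 and 0.61 in S16 to S27. The tub3 profile correlated at 0.12 with tub7 over 27 arrays and at 0.43 without S16 and S24, and 10 of its 15 values in S1 to S15 were the repeated value. The difference between the sets was not tested.

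Over all 32 pairs of different beta isotypes the median was 0.20, 5 reached 0.5 and 6 lay below 0. All 5 that reached 0.5 joined tub6 to tub7 probe 3367 or 12063.

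Alpha and beta probes correlated weakly on the whole, with wide differences by isotype. Over 90 pairs of a tua3 and a beta probe the median was 0.20, from -0.48 (7759 with tub4) to 0.70 (12447 with tub6 probe 10976). Of the 90, 8 (8.89%) reached 0.5, against the 4.9% given above, and 27 (30%) lay below 0, against 48.7%. The median was 0.36 over 27 pairs with tub6 and 0.22 over 45 pairs with tub7. It was 0.00 over 9 pairs with tub3 and -0.14 over 9 pairs with tub4, of which 8 lay below 0. After block centring the median with tub4 was 0.09, on the other side of 0, and 4 of the 9 pairs lay below 0. In S1 to S15 alone the median over the 90 pairs was 0.37, and in S16 to S27 alone it was -0.02.

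The 8 alpha with beta pairs that reached 0.5 joined 6 of the 9 tua3 probes to tub6 or tub7. Probe 5618 was in 3 of them, with each of the tub6 probes at 0.53, 0.55 and 0.63. In S16 to S27 alone these were 0.19, -0.18 and 0.09. Probes 988 and 4536 correlated with tub7 probe 3367 at 0.65 and 0.63, and at 0.28 and 0.27 in S16 to S27 alone. The highest, 12447 with tub6 probe 10976 at 0.70, was 0.36 there. Probe 10136 reached 0.60 with tub6 probe 11764, and 0.57 in S16 to S27 alone. The last of the 8, tua3 probe 7759 with tub7 probe 7627 at 0.55, shared a printing block. After block centring it was -0.48, with a rho of 0.23 before it and a correlation of 0.56 in S16 to S27 alone. The other 7 were 0.51 to 0.68 after block centring.

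**Figure D4:**
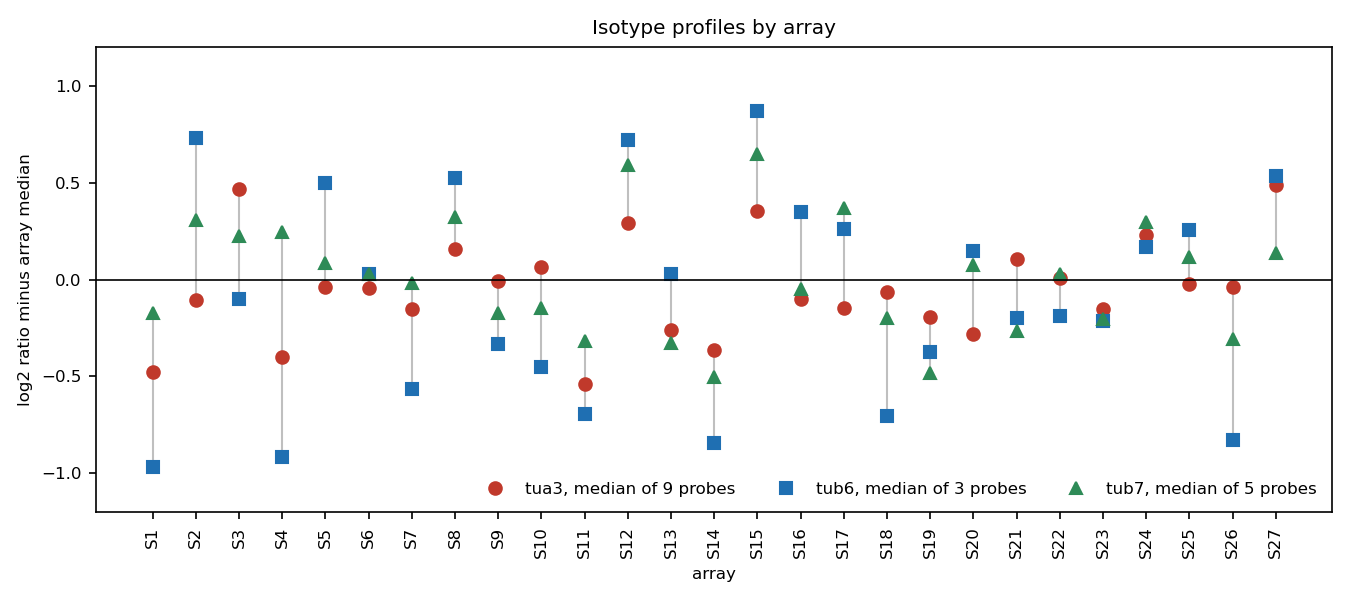
Profiles of tua3 (circles), tub6 (squares) and tub7 (triangles), each the median over the isotype's probes of the log2 ratio minus the array median, on the 27 arrays; a grey line joins the lowest and highest on an array. All 3 lie above 0 on S8, S12, S15, S24 and S27 and below 0 on S1, S7, S9, S11, S14, S18, S19, S23 and S26.

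As profiles, tua3 correlated at 0.60 with tub6 (rho 0.57) and at 0.55 with tub7 (rho 0.51). Without S3 and S27, the arrays farthest from the tua3 median, these were 0.64 and 0.57, and after block centring 0.57 and 0.58. In S1 to S15 alone they were 0.70 and 0.69, and in S16 to S27 alone 0.34 and 0.30. The difference between the sets was not tested. With tub3 and tub4 the tua3 profile correlated at -0.10 and -0.11, and after block centring at -0.0092 and 0.03. In S1 to S15 alone these were 0.38 and -0.22, and in S16 to S27 alone -0.37 and 0.04, so neither had a settled direction.

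The tua3 profile ran from -0.54 (S11) through a median of -0.04 to 0.49 (S27), and the profile of all 10 beta probes from -0.62 (S14) through -0.04 to 0.68 (S15). They correlated at 0.51 (rho 0.46) and were both above or both below the array median on 17 of 27 arrays. Alpha minus beta ran from -0.46 (S17) through -0.06 to 0.46 (S3), with 13 arrays above 0 and 14 below, and passed 2-fold on 0 arrays.

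Counted over all 19 probes, the arrays on which the tubulins moved furthest to 1 side were S12, with 18 above the array median, S8 with 17 and S15 with 16. On the low side they were S14, with 16 below and 1 at the median, and S1 and S18, each with 15 below. On the other 21 arrays fewer than 15 probes lay on the same side. The interquartile range of all probes was 0.87 on S12 and 0.62 on S8, against a median of 0.75 over arrays, so these 2 arrays were near the middle in the size of their ratios. It was 1.14 on S15, among the wider arrays, where the median over the 19 tubulin probes was 0.63.

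Other cytoskeleton genes were taken from a list of symbols. The list held 16 genes with 57 probes, of which 35 (61.4%) reached 2-fold, against 65% of probes with 1 gene name, and the median spread was 1.11. The 5 other tubulin genes had 26 probes with a median spread of 1.17, and 17 reached 2-fold. Of 13 probes of 3 profilins, which bind actin monomers, 1 reached 2-fold, with a median spread of 0.87. All 5 probes of the actin-depolymerising gene ABP3/ADF3 did so, with a median of 1.06. All 5 probes of the 4 kinesins, which are microtubule motors, did so too, with 1.23, as did 7 of 8 of the ROP GTPases, which signal to the cytoskeleton, with 1.36.

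**Figure D5:**
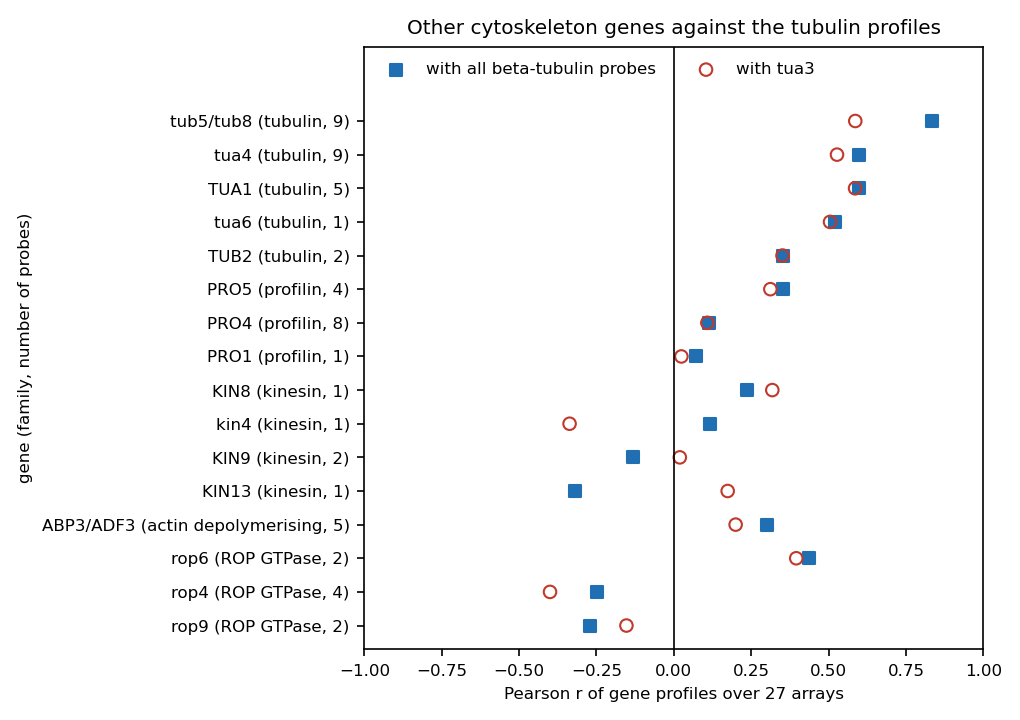
Pearson correlation over 27 arrays of the profile of each other cytoskeleton gene (rows, with its family and number of probes) with the profile of all beta-tubulin probes (squares) and with tua3 (circles). The 5 other tubulins lie between 0.35 and 0.84 on both, and the other families lie between -0.40 and 0.44.

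The other tubulin genes correlated with the beta profile at 0.84 for the beta-tubulin tub5/tub8 (LOC542418, 9 probes, listed under both names), 0.60 for the alpha-tubulins TUA1 (LOC100037751, 5 probes) and tua4 (9 probes), 0.52 for tua6 (LOC542582, 1 probe) and 0.35 for TUB2 (TUBB2, 2 probes). With tua3 the values were 0.59 for tub5/tub8, 0.59 for TUA1, 0.53 for tua4, 0.50 for tua6 and 0.35 for TUB2. Without block centring TUA1, tua4 and tua6 thus correlated about as closely with the beta-tubulins as with the alpha-tubulin tua3.

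Block centring moved several of these values. With tua3 it gave 0.75 for tua6, 0.69 for TUA1, 0.69 for tua4, 0.59 for tub5/tub8 and 0.30 for TUB2. With the beta profile it gave 0.82 for tub5/tub8, 0.62 for TUA1, 0.47 for tua4, 0.45 for tua6 and 0.09 for TUB2. Each of the 3 alpha-tubulins was then closer to tua3 than to the beta profile. Without block centring, the 5 genes in S16 to S27 alone correlated with tua3 at 0.06 (tua4) to 0.27 (TUA1). In S1 to S15 alone they ran from 0.43 (TUB2) to 0.82 (tub5/tub8). With the beta profile, TUA1, tua4 and tua6 correlated at 0.65, 0.22 and 0.46 in S16 to S27 alone. Their values with tua3 there were 0.27, 0.06 and 0.23, so each was closer to the beta profile. In S1 to S15 alone they were 0.62, 0.74 and 0.64 with the beta profile and 0.69, 0.70 and 0.71 with tua3. For TUB2 the beta value was 0.67 in S1 to S15 and 0.02 in S16 to S27. The 9 probes of tua4 agreed little, with a median correlation of 0.04 among them and a rank of 95 of 147 genes. Those of tub5/tub8 agreed about as little, with a median of 0.06, a lowest value of -0.55 and a rank of 89.

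The tub5/tub8 profile correlated at 0.77 with tub6 and 0.76 with tub7, and at 0.90 with tub6 after block centring. The other cytoskeleton families ran from -0.32 (KIN13) to 0.44 (rop6) with the beta profile, and from -0.40 (rop4) to 0.40 (rop6) with tua3. After block centring they ran from -0.45 to 0.46 with the beta profile. TUB2 lay within their range both before block centring, at 0.35, and after it, at 0.09. With single isotypes the TUB2 profile correlated at 0.64 with tub6, 0.41 after block centring, and at 0.24 with tub7.

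Probe by probe these relations were looser. The 27 pairs of a tub6 and a tub5/tub8 probe had a median of 0.41, from -0.42 to 0.86, and 13 of them reached 0.5. Their median was 0.65 after block centring. The 6 pairs of a tub6 and a TUB2 probe had a median of 0.55, with 4 at 0.5 or more, and 0.54 after block centring. For the 10 pairs of a tub7 and a TUB2 probe the median was 0.13. The 45 pairs of a tua3 and a TUA1 probe had a median of 0.32, from -0.19 to 0.73, with 9 at 0.5 or more, and the 81 pairs of a tua3 and a tua4 probe had a median of 0.16, from -0.52 to 0.71, also with 9. Neither tub3 nor tub4 had a median above 0.35 with any of the 5 genes.

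Outside the tubulins, 252 genes with at least 2 probes were ranked by the correlation of their profile with that of the tubulins over 27 arrays. With the beta profile the median over these genes was 0.04, and the 10th and 90th percentiles were -0.30 and 0.49. The 5 most alike were LOC542367 (GAPC1), a cytosolic glyceraldehyde-3-phosphate dehydrogenase of glycolysis, at 0.87, LOC542733 (sam2) at 0.81, LOC541811 (cop2) at 0.76, LOC541942 (csu503) at 0.74 and LOC100101525 (cystatin), a cysteine protease inhibitor, at 0.74. Of the 252 genes, 1 (GAPC1) exceeded the 0.84 of tub5/tub8, and 23 exceeded the 0.51 of tua3. The 5 genes kept 0.64 to 0.83 after block centring, and 0.61 to 0.86 within S16 to S27. Among the probes of each gene the median correlation was 0.67 for GAPC1, 0.44 for sam2, 0.13 for cop2 and 0.50 for csu503. The cystatin gene had 2 probes.

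With the tua3 profile the median over the 252 genes was 0.12, and the 10th and 90th percentiles were -0.24 and 0.45. The 5 most alike were met2 at 0.78, LOC542365 (sh1), a sucrose synthase, at 0.70, LOC542737 (AGP2) at 0.65, LOC541649 (eIF-4A), an RNA helicase of translation initiation, at 0.62, and LOC542533 (CaM2), a calmodulin, at 0.62. These 5 were at 0.49 to 0.71 after block centring, 0.33 to 0.73 within S16 to S27 and 0.47 to 0.71 without S3 and S27. Among the probes of each gene the median correlation was 0.12 for met2, 0.59 for sh1, 0.19 for AGP2, 0.30 for eIF-4A and -0.04 for CaM2. Over 27 arrays the tubulin closest to tua3 was tub6 at 0.60, which 6 of the 252 genes exceeded. The order depended on the processing. After block centring tua6 at 0.75 lay above all 5 named genes, and TUA1 and tua4 at 0.69 each lay below met2 (0.71) and above the other 4. The 5 were picked before block centring, however. Of all 252 genes, 1 that is not among the 5 then exceeded tua6, and 2 exceeded each of TUA1 and tua4. Without S3 and S27, tub6 at 0.638 lay just above AGP2 (0.637), and above eIF-4A (0.50) and CaM2 (0.47). These genes were picked for their likeness, so the values describe the arrays and are not tested. All profiles on an array share its RNA pair, its dyes and its centring.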

How the data were processed

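The authors deposited 1 value per spot and array for 19200 spots, of which 897 were empty. For the unit, the scanner, the background correction and the normalization, nothing was stated in the labels used here. The deposited numbers were taken for natural log ratios from a check of repeated values: among values found 3 or more times on the same array, 106 differences equalled 2 times ln k for k from 2 to 10 (tolerance 2e-05), against a mean of 5.83 at offset distances, and base 2 gave 3 against 4.83. A constant multiple is not fixed by this. Division by ln 2 put them on the log2 scale, and each was centred on each array's median (Python 3.11.15, pandas 2.3.3). No error of a mean is given, since the arrays are not replicates.

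Of the platform table's probes, 1607 had 1 gene (532 genes). Synonyms came from RefSeq's annotation of Zm-B73-REFERENCE-NAM-5.0, which held all 5 tubulins. Other cytoskeleton genes were matched by synonym or by the platform table's symbol, by that symbol alone for tua4 and KIN9. Genes were named by a rule: the 5 isotypes, that list, and, per profile, the 5 non-tubulin genes with at least 2 probes and the highest correlation. Members and lists were chosen with earlier results of these data known. Runs of 400 spots were treated as blocks, since 83.3% of empty spots recurred 400 spots later. The functions were tested on simulated data. Alternatives covered centring, scale, blocks, repeated values, sets of arrays, single arrays left out, and the measures of spread, side and correlation.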

Additional observations from a re-analysis of the deposited data

How the results depend on the processing

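For the 12 summary values, a value counted as kept when it moved by less than the SD over the isotype's probes or pairs. For counts and for tub3 and tub4 the limit was 1.5 times. A value that changed sign was not kept, whatever the SD. Of 96 values under the alternatives, 77 were kept. This limit was wide for the correlations. Within tub7, for alpha with beta and between beta isotypes the SD (0.22, 0.26 and 0.24) exceeded the median (0.16, 0.20 and 0.20). A fall to near 0 would there still count as kept. Within S16 to S27 the median correlation was -0.0214 within tua3, -0.19 within tub7 and -0.0219 for alpha with beta, all below 0, and 0.51 within tub6, while within S1 to S15 it was 0.63 within tub7. The median spread was 0.77 for tua3 and 1.08 for tub6 within S16 to S27, and 1.99 for tub3, 1.05 for tub4 and 1.61 for tub6 within S1 to S15. It was 1.82 for tub6 with arrays rescaled and 1.15 for tub4 after block centring; the cause was not tested. With the interquartile range, narrower by construction, the spreads were 0.43 for tua3, 0.47 for tub3, 0.59 for tub4, 0.93 for tub6 and 0.62 for tub7, and 1 tubulin probe reached 2-fold. Without centring 0 tubulin probes lay on 1 side.

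With 1 array left out, the median spread ran from 0.96 to 1.13 for tua3, 3.26 to 4.03 for tub3, 1.4997 to 1.81 for tub4, 1.38 to 1.42 for tub6 and 1.02 to 1.18 for tub7. The count at 2-fold was 12 to 14, and 1 probe always lay on 1 side. The median correlation ran from 0.20 to 0.27 within tua3, 0.77 to 0.82 within tub6 and 0.09 (without S15) to 0.33 (without S27) within tub7, and from 0.15 to 0.24 for alpha with beta and 0.16 to 0.28 between beta isotypes. No paired analysis was possible because the labels used here put no array in a group. The limit that dim spots set was not measured, since the values hold no signal over background.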
